A study of Macaca mulatta with 15 samples.

Results

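The memory programme of blood T cells, meaning the genes whose RNA differs between memory and naive cells, was compared between the CD8 and the CD4 lineage of rhesus macaques. The measure was a difference of differences: CD8 memory minus CD8 naive, less CD4 memory minus CD4 naive, called the interaction here. It was fitted on all 15 libraries of the series, and 13503 of the 34884 genes in the count table had enough reads to be tested. An interaction above 0 means that memory minus naive was larger, as a signed log2 difference, in CD8 than in CD4 cells.

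Naive T cells have not yet met their antigen, recirculate through lymph nodes and are kept quiescent by factors such as BACH2, TCF7 and LEF1. Memory T cells descend from cells that responded, and they carry adhesion molecules, chemokine receptors and effector genes that let them enter tissues and respond quickly. CD4 memory cells mostly help other cells through cytokines and surface ligands such as CD40LG, while CD8 memory cells are known for killing through perforin and granzymes.

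The series holds RNA from the blood of 2 healthy animals, RhDBCb and RhM22. Each was sampled before and after 2-hydroxypropyl-beta-cyclodextrin, a cholesterol-binding sugar ring injected under the skin as a 15% (w/w) solution, with a daily 1 ml/kg over at most 120 days. CD4 naive, CD4 memory and CD8 memory cells have 4 libraries each, 2 from untreated animals and 2 from treated ones. CD8 naive cells have 3, 2 untreated and 1 treated, since the RhDBCb library after treatment was not analysed here, so 3 of the 4 blood draws hold all 4 subsets. Animal and time entered the fit as a block of 4 draws. Libraries of 1 draw come from 1 animal, so n counts libraries and p-values measure the spread between these 15 libraries of 2 animals. How naive and memory cells were separated is not given in the sources used here. In such bulk libraries, a change in RNA per cell and a change in the mix of cells cannot be told apart.

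Total counts lay between 44414954 and 71787193 per library. The co-receptor transcripts followed the labels: CD4 lay at 203 to 550 CPM (counts scaled to a common library total) in the 8 CD4 libraries and at most 1.7 in the 7 CD8 libraries, and CD8A at 664 to 859 CPM in CD8 and at most 3.89 in CD4 libraries. A memory marker also followed the labels, with S100A4 higher in every memory library than in the naive libraries of its lineage. Before treatment, both CD8 libraries of RhDBCb stood apart. Its CD8 naive library held 140.0 CPM of GZMK and 252 CPM of CCL5, against 21.5 to 29.1 and 30.4 to 50.8 CPM in the other CD8 naive libraries. Its CD8 memory library held 115 CPM of the proliferation marker MKI67 and 2269 CPM of S100A4, against 5.93 to 11.1 and 326 to 460 CPM in the other CD8 memory libraries. Markers of other cells moved with the CD8 memory label as well. The summed level of 11 NK cell markers was 71.5 to 181 CPM in CD8 memory, 17.3 to 36.7 CPM in CD8 naive and 7.58 to 16.3 CPM in CD4 libraries. Of these, the NK signalling adaptor FCER1G lay at most at 0.23 CPM in any group and NCAM1 at most at 1.802 CPM. Other NK-type transcripts were higher in CD8 memory. KLRF1 lay at 19.6 to 62 CPM in CD8 memory and 4.19 to 8.99 CPM in CD8 naive libraries. TYROBP lay at 13.15 to 17.9 CPM and 6.23 to 12.2 CPM in the same 2 subsets. The sum of 8 markers of MAIT-like cells was 320 to 559 CPM in CD8 memory, 40.2 to 98.5 in CD8 naive, 125 to 235 in CD4 memory and 19.8 to 47.3 in CD4 naive libraries. Gamma-delta markers summed to 16.1 to 50.2 CPM over 4 genes in CD8 memory and to at most 10.2 CPM elsewhere. The part of such cells in the results below was not tested. Among lists for cells that are not T cells, 14 B cell markers summed to 31.0 to 138 CPM and 16 monocyte and dendritic cell markers to 298 to 771.5 CPM over all libraries. In the B cell list MS4A1 reached at most 1.72 CPM, while CD79A, a chain of the B cell receptor, lay at 50 to 103.9 CPM in CD8 naive and at 12.9 to 32.3 CPM in the other subsets. In the monocyte list CD14 reached at most 10.9 CPM and LYZ at most 26.6 CPM, while SERPINA1 lay at 229 to 766.5 CPM. The sum of 11 platelet markers was 5.04 to 100 CPM, with up to 68.3 CPM of PPBP. The part of these transcripts in the results was not tested.

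The memory-naive differences of both lineages ran largely in 1 direction, and few genes differed between lineages beyond the spread of the libraries. In CD4 cells 1080 genes were higher in memory (8% of those tested) and 688 lower (5.1%), at a Benjamini-Hochberg adjusted p under 0.05 by edgeR's quasi-likelihood test. In CD8 cells 1510 were higher (11.2%) and 1043 lower (7.72%). A total of 1228 genes (9.09% of those tested) passed in both lineages in the same direction, 819 higher and 409 lower in memory. They made up 69.5% of the CD4 genes and 48.1% of the CD8 genes. Only NFIL3 and HOXB6 passed in both with opposite signs. Across all genes tested, the CD4 and CD8 differences correlated at a Pearson r of 0.63, as a description, since genes are not independent replicates and both sets share 4 blood draws.

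The interaction itself passed the test for 12 genes, 0.0889% of the 13503 tested, with 9 above 0 (0.0667%) and 3 below (0.0222%). At an unadjusted p under 0.05 there were 1138 genes, or 8.43%, and DESeq2's Wald test on the same block called 176, all 12 among them. Without the block of draws 1 gene passed, and with animal and time as separate terms 6. The median standard error of the interaction was 0.346 on the log2 scale and the median 95% interval reached 0.749 to either side. The smallest absolute interaction among the 12 was 1.13, in HNRNPLL. The 12 genes fell into 3 patterns: 6 limited to CD8, 5 with the same direction but unequal size, and 1 opposite, HOXB6. None was limited to CD4 by edgeR; DESeq2 gave 7. In 11 of the 12 genes the absolute difference was larger in CD8. Over all genes tested the median absolute difference was also larger in CD8, at 0.437 against 0.344 in CD4. Each of the 12 had 1 sign in all 3 complete draws. The genes were chosen from these same draws, so the shared sign is no separate evidence.

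The count of 12 changed when single libraries were left out. Leaving out CD4 naive or CD4 memory of RhM22 before treatment, or either CD8 naive library of RhM22, left 0 calls by edgeR, with 875 to 957 genes at an unadjusted p under 0.05. Without the CD8 memory library of RhM22 before treatment there were 2, without its CD4 naive library after treatment 2, and without its CD4 memory library after treatment 4. Removing the CD4 memory library of RhDBCb before treatment left 6, and removing the one after treatment also left 6. Leaving out the CD8 naive library of RhDBCb before treatment gave 20 and leaving out its CD8 memory library before treatment gave 44. Without both of those RhDBCb libraries, which stood apart, 64 genes passed, the same 12 among them. All 12 kept their sign in each of the 15 fits that left 1 library out, and in the fits of 1 animal or 1 time alone. These fits reuse the libraries from which the 12 genes were chosen, so the kept signs are no separate evidence.

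**Figure D1:**
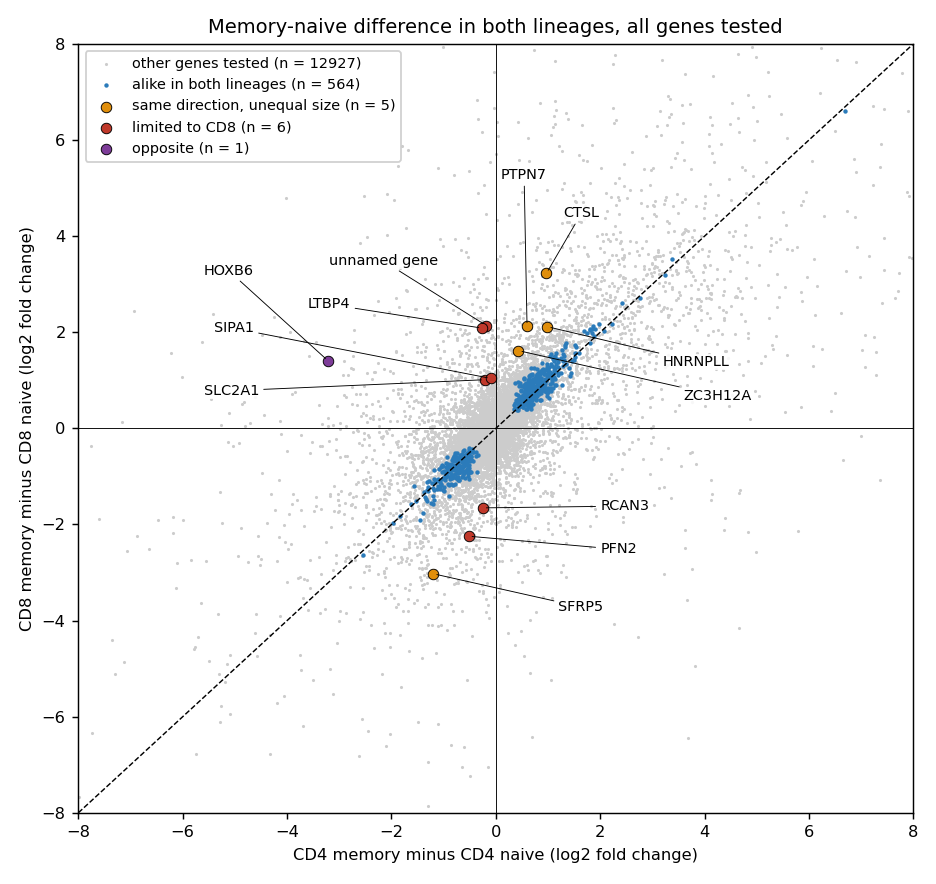
Memory minus naive as log2 fold change in CD4 (x axis) and CD8 cells (y axis) for the genes tested, 1 point each; the dashed line marks equal differences, and 36 genes lie outside the range of -8 to 8. Most of the 564 genes alike in both lineages lie close to the line, and the 12 genes called for the interaction, labelled, lie off it, 11 of them farther from 0 in CD8 than in CD4.

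A gene was called alike when it passed in both lineages in the same direction and the 95% interval of its interaction lay within 2-fold, from -1 to 1 on the log2 scale. This held for 564 genes, 4.18% of those tested and 45.9% of the 1228 that passed in both lineages. Of them 355 were higher and 209 lower in memory, and 555 had a mean of at least 5 CPM. For another 659 genes that passed in both, the interval reached beyond 2-fold, so likeness could not be stated; their median was 9.42 CPM, a measure of how many reads they drew, against 60.1 CPM for the alike genes. Without single libraries the count of alike genes ran from 287 to 583. It was 365 without CD4 naive of RhDBCb before treatment and 370 without it after treatment, 372 without its CD4 memory library after treatment and 347 without its CD8 naive library. It was 327 and 331 without the CD4 memory libraries of RhM22 before and after treatment, 373 without its CD4 naive library after treatment, and 289 and 287 without its CD8 naive libraries.

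The 8 genes that rose alike with the largest differences were MYO1F, TPPP, LGALS3, PRR5L, ADAP1, STAMBPL1, PLP2 and SAMSN1. Throughout, values per subset are given in the order RhDBCb before, RhDBCb after, RhM22 before and RhM22 after treatment, with no RhDBCb after value for CD8 naive cells. MYO1F, an unconventional myosin of immune cells, lay at 11.8, 19.1, 17.1 and 18.7 CPM in CD4 naive and at 125, 165, 136 and 209 in CD4 memory cells. In CD8 cells MYO1F lay at 44.5, 39.9 and 31.1 CPM in naive and 534, 300.3, 229.9 and 375 in memory libraries. Naive and memory values did not overlap in either lineage, and CD8 cells of both kinds held more of it than their CD4 counterparts. The rise was 3.23 (SE 0.27) on the log2 scale in CD4 and 3.19 (SE 0.3) in CD8, an interaction of -0.05 (95% interval -0.84 to 0.75).

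TPPP, which promotes tubulin assembly, rose by 3.37 (SE 0.27) in CD4 and 3.52 (SE 0.31) in CD8 memory cells on the log2 scale. Its level was 2.18 to 6.47 CPM in CD4 naive, 26.2 to 78 in CD4 memory, 1.14 to 1.75 in CD8 naive and 14.4 to 21.3 in CD8 memory libraries. LGALS3, the gene of galectin-3, rose by 2.76 and 2.71 with an interaction interval of -0.87 to 0.77. Its CD8 memory library of RhDBCb before treatment held 326 CPM, and the other CD8 memory libraries 99.3 to 109 CPM. PRR5L, a partner of the mTORC2 kinase complex, rose by 2.42 in CD4 and 2.6 in CD8. Its values of 2.5 to 5.34 CPM in CD4 naive and 4.09 to 10.7 CPM in CD8 naive libraries became 14.1 to 27.6 and 35.7 to 57 CPM in memory libraries. The deubiquitinase STAMBPL1 rose by 2.07 and 2.02, the membrane proteolipid PLP2 by 1.97 and 2.17, and the adaptor SAMSN1 by 1.9 and 2.07, CD4 value first. ADAP1, which acts on the small GTPase ARF6, rose by 2.23 and 2.17 from unequal starting levels, 0.238 to 1.24 CPM in CD4 naive and 2.5 to 6.21 CPM in CD8 naive libraries.

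Of the genes that fell alike, 8 were chosen in the same way. BACH2, a repressor that restrains effector genes, lay at 38, 81.2, 58.5 and 62.4 CPM in CD4 naive and 3.33, 8.56, 17.9 and 15.5 in CD4 memory cells. In CD8 cells BACH2 lay at 55.5, 119.9 and 114 CPM in naive and 8.92, 21.4, 20.5 and 15.2 in memory libraries. No memory value reached a naive value of its lineage. BACH2 fell by 2.55 (SE 0.27) in CD4 and by 2.63 (SE 0.29) in CD8 on the log2 scale, with an interaction of -0.07 (95% interval -0.91 to 0.76). NRIP1, a nuclear receptor corepressor, lay at 297 to 684 CPM in CD4 naive and 92.6 to 229.9 in CD4 memory, and at 348 to 530.3 and 126 to 208 CPM in CD8 naive and memory libraries. Its fall was tightly shared, by 1.62 in CD4 and by 1.58 in CD8, with an interaction interval of -0.43 to 0.52. The kinase SGK1 fell by 1.54 and by 1.51, and RGS10, a brake on G protein signalling, fell by 1.45 and by 1.91. TAF4B, a subunit of the TFIID transcription complex, fell by 1.34 and by 1.47. BEX2 fell by 1.4 and by 1.76, the myotubularin-related SBF2 fell by 1.35 and by 1.43, and FBXW8, an F-box subunit of a ubiquitin ligase, fell by 1.37 and by 1.32, CD4 first in each case.

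**Figure D2:**
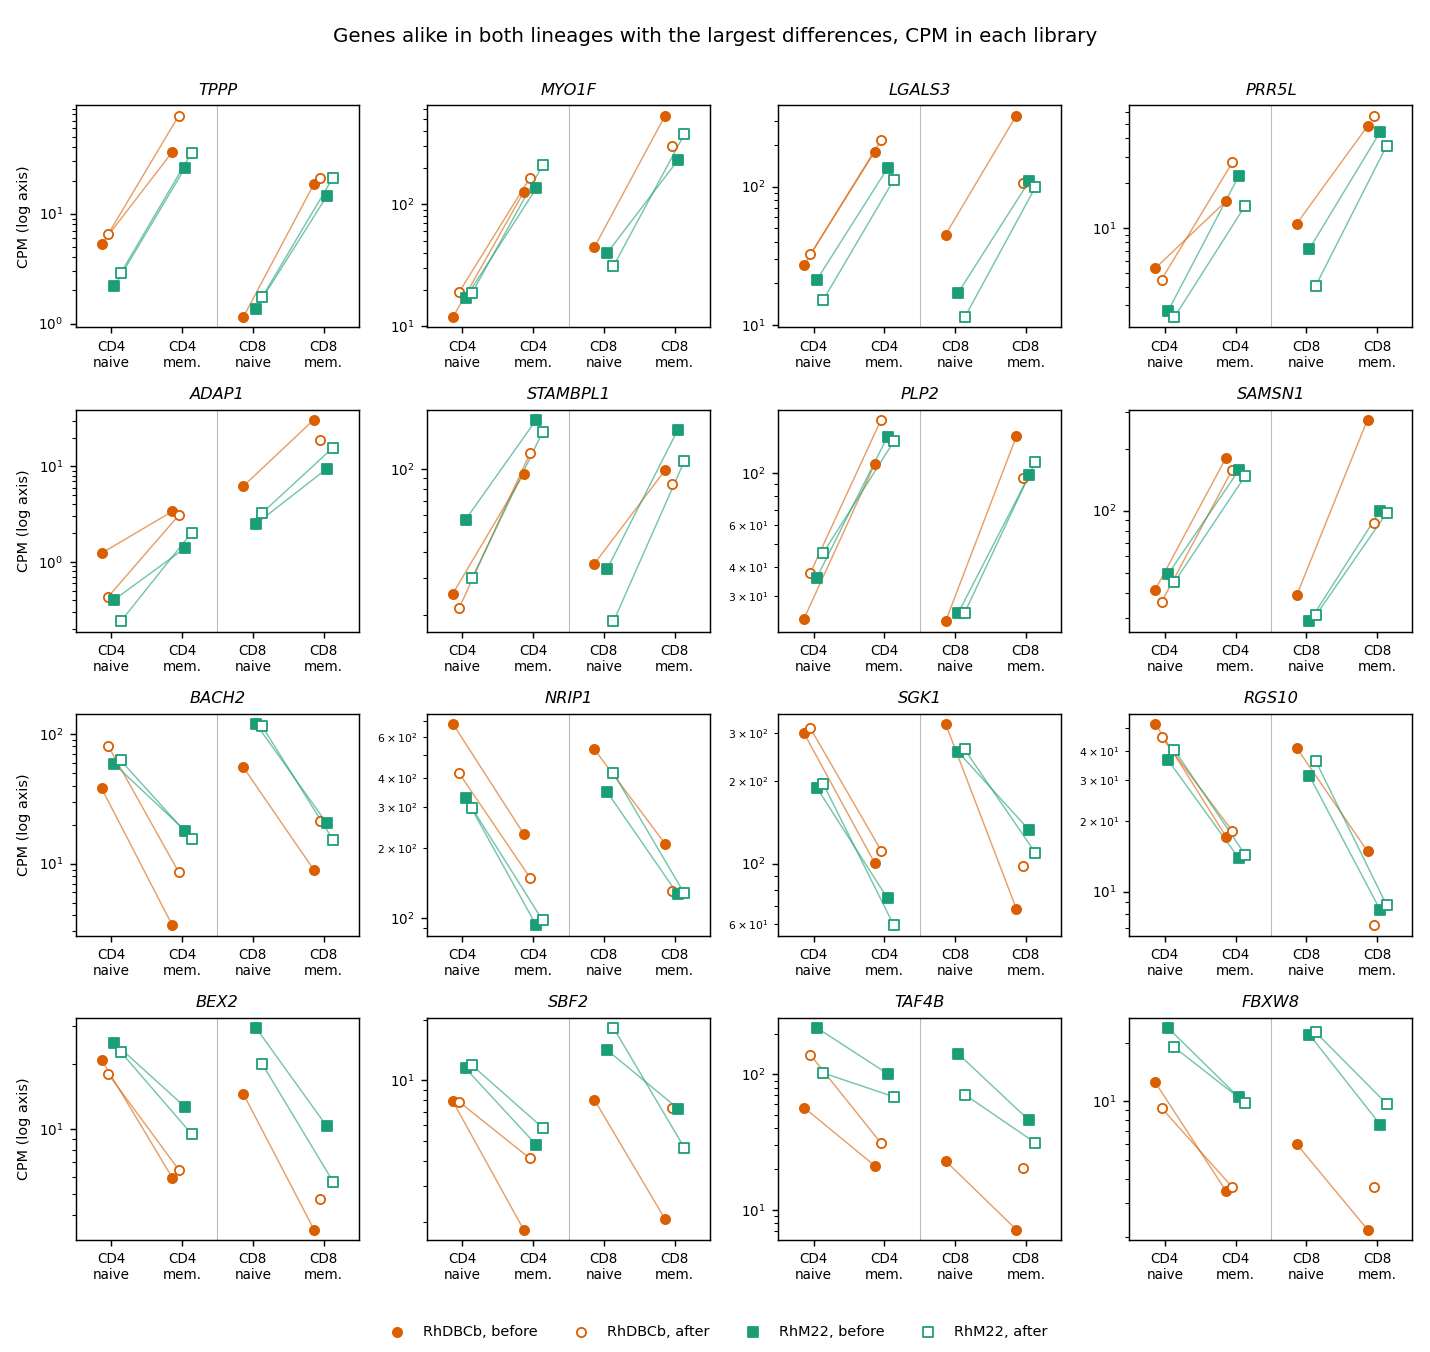
Level of the 16 alike genes chosen by size, 8 higher and 8 lower in memory, in each of the 15 libraries as CPM on a log axis; colour and shape give the animal, filled symbols are before and open symbols after treatment, and lines join naive and memory libraries of 1 draw. The lines run the same way in both lineages, also where the lineages start from different levels, as for ADAP1 and MYO1F.

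Of 50 panel genes of naive and memory cells, 46 were tested. By edgeR 0 of them passed for the interaction, 17 had an unadjusted p under 0.05, and DESeq2 called 6. Of all genes tested, 8.43% had an unadjusted p under 0.05 and DESeq2 called 1.3%. TCF7, a factor of the naive and stem-like state, lay at 84, 84.8, 83.2 and 123 CPM in CD4 naive, 57.4, 64.6, 55.2 and 73.5 in CD4 memory, 62.1, 89.3 and 122 in CD8 naive and 50.6, 64.9, 53.9 and 75.1 in CD8 memory cells. TCF7 fell by 0.57 and by 0.56, and the chromatin organiser SATB1 fell by 1.06 and by 1.22, both alike. ANXA1, CD58 and RUNX3 were alike in the other direction. CD58, the ligand of CD2, rose by 1.2 (SE 0.11) and 1.12 (SE 0.13), with an interaction interval of -0.44 to 0.27. RUNX3, the factor that represses CD4 in the CD8 lineage, rose by 1.28 in CD4 and 1.3 in CD8 memory cells. RUNX3 stayed lower in CD4 cells, at 96.1 to 317 CPM in memory, than in CD8 memory cells at 259.8 to 569, with overlap between the groups. IL7R, CD28, S1PR1 and CTLA4 passed in neither lineage, and their interaction intervals lay within 2-fold: -0.86 to 0.68 for the IL-7 receptor, -0.62 to 0.6 for CD28, -0.53 to 0.11 for S1PR1 and -0.45 to 0.96 for CTLA4.

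**Figure D3:**
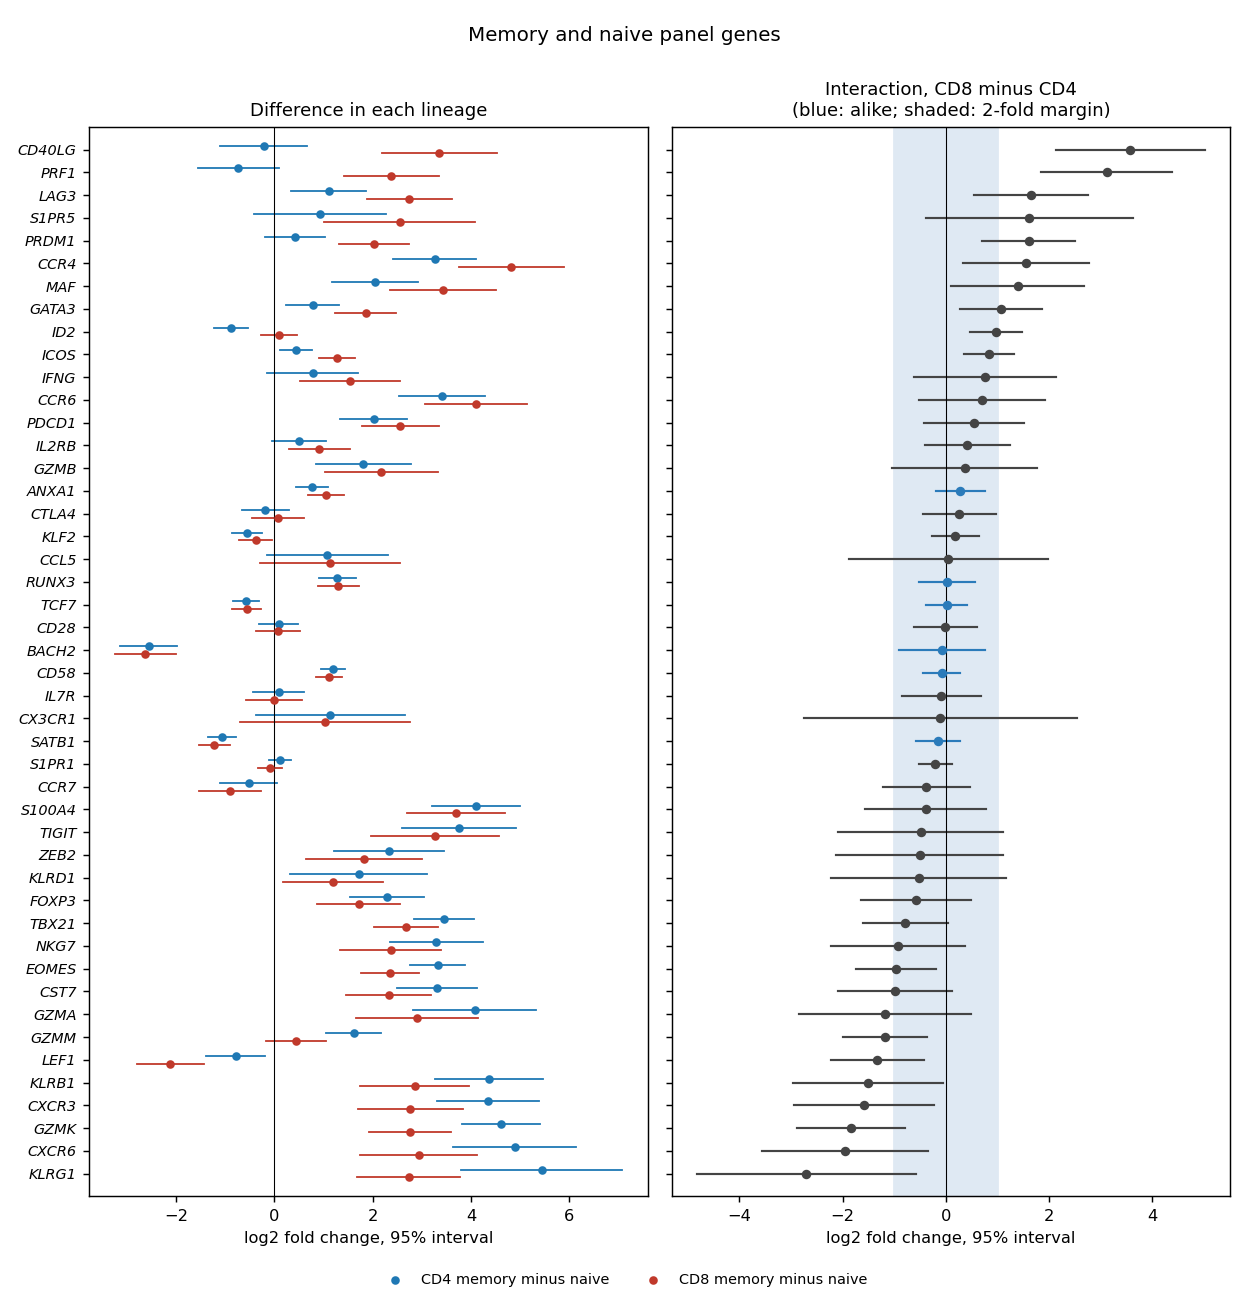
Left, memory minus naive difference of the 46 panel genes tested in CD4 (blue) and CD8 cells (red); right, their interaction; both as log2 fold change, points with 95% intervals. The 6 genes classed as alike have intervals inside the shaded 2-fold margin, and CD40LG and PRF1 at the top, and KLRG1 at the bottom, lie farthest from 0.

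The genes limited to CD8 passed in CD8 and for the interaction, did not pass in CD4, and had a CD4 interval within 2-fold. LTBP4, a binding protein of latent TGF-beta, lay at 50.3, 42.3, 43.1 and 33.1 CPM in CD4 naive and at 28.9, 39, 37.7 and 33.4 in CD4 memory cells. In CD8 cells LTBP4 was far lower, at 1.38, 0.786 and 0.62 CPM in naive and 4.45, 4.3, 3.07 and 3.96 in memory libraries. Every CD8 memory library lay above every CD8 naive one, and still below every CD4 library. The difference was 2.09 (SE 0.25) in CD8 and -0.26 (95% interval -0.68 to 0.17) in CD4, an interaction of 2.34 (edgeR adjusted p = 0.0143) that was called in 10 of 15 fits without 1 library.

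SLC2A1, the glucose transporter GLUT1, was the only member of the gene lists described below that passed for the interaction. It lay at 72.5, 47.2, 51.5 and 54.2 CPM in CD4 naive, 60.4, 41.6, 45.1 and 47.2 in CD4 memory, 58.1, 44.1 and 50.05 in CD8 naive and 159.5, 63.6, 86.8 and 87.2 in CD8 memory cells. All CD8 memory libraries were above the CD8 naive ones, whereas CD4 memory was below CD4 naive in each of the 4 draws. The difference was 1.01 (SE 0.15) in CD8 and -0.21 (95% interval -0.5 to 0.08) in CD4, and the interaction 1.22 (edgeR adjusted p = 0.0471) was called in only 2 of 15 fits without 1 library. Without both CD8 libraries of RhDBCb from before treatment the SLC2A1 interaction was 1.07 (edgeR adjusted p = 0.0309).

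SIPA1, which switches off the adhesion GTPase RAP1, lay at 72.8 to 162 CPM in CD4 naive and 69.2 to 150.4 in CD4 memory libraries. In CD8 cells SIPA1 lay at 112, 169 and 157 CPM in naive and 236, 328, 329 and 390.4 in memory libraries, with no overlap. Its CD8 difference was 1.04 (SE 0.14) and its CD4 difference -0.1 (95% interval -0.37 to 0.18), an interaction of 1.14 (edgeR adjusted p = 0.0471, called in 3 of 15 fits without 1 library). A gene without a symbol, ENSMMUG00000057791, lay at 5.47 to 11 CPM in all CD4 libraries. It lay at 90.6, 107 and 69.9 CPM in CD8 naive and 222, 418, 545 and 515 in CD8 memory libraries. Both CD8 groups thus lay above all CD4 libraries, and the memory group above the naive one, with an interaction of 2.32 (SE 0.31, edgeR adjusted p = 0.0143, called in 7 of 15 fits). Since this gene has no symbol, its role was not assigned.

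RCAN3 and PFN2 fell in CD8 memory cells. RCAN3, a regulator of the phosphatase calcineurin, lay at 97.9, 80.8, 80.4 and 124 CPM in CD4 naive, 67, 78.6, 82 and 94.2 in CD4 memory, 65.7, 79.6 and 109.5 in CD8 naive and 19.3, 24.7, 27.6 and 33.1 in CD8 memory cells. The 4 CD8 memory libraries lay below all 11 others. RCAN3 fell by 1.65 (SE 0.15) in CD8, against -0.25 (95% interval -0.53 to 0.03) in CD4, an interaction of -1.41 (edgeR adjusted p = 0.0184, called in 8 of 15 fits without 1 library). PFN2, an actin-binding profilin whose symbol came from the table of gene names, lay at 13.6 to 19.8 CPM in CD4 naive and 10.3 to 12.9 in CD4 memory libraries. It lay at 34.1, 22.2 and 19.8 CPM in CD8 naive and 5.65, 6.61, 5.24 and 4.54 in CD8 memory libraries. CD8 memory was again lowest, and CD4 memory lay below CD4 naive without overlap, short of the threshold. The interaction of PFN2 was -1.72 (SE 0.25, edgeR adjusted p = 0.0249, called in 8 of 15 fits), from -2.24 in CD8 and -0.52 in CD4 (edgeR adjusted p = 0.0566 for CD4).

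In the 5 genes of unequal size both lineages passed in the same direction and the CD8 difference was the larger. PTPN7, a tyrosine phosphatase of blood cells that acts on MAP kinases, had the smallest p of all genes. It lay at 74.3, 81.1, 63.7 and 64.8 CPM in CD4 naive and 119, 112, 101 and 98.5 in CD4 memory cells. In CD8 cells PTPN7 lay at 54, 44.2 and 38.4 CPM in naive and 258, 172, 180 and 190 in memory libraries. The order of the groups was CD8 naive, CD4 naive, CD4 memory and CD8 memory, with no overlap between neighbours. The rise was 0.6 (SE 0.12) in CD4 and 2.13 (SE 0.14) in CD8, an interaction of 1.53 (95% interval 1.14 to 1.91, edgeR adjusted p = 0.0141) that was called in 11 of 15 fits without 1 library.

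HNRNPLL, the RNA-binding protein known for directing the splicing of CD45 in memory T cells, lay at 43.6, 28.5, 31.2 and 31.2 CPM in CD4 naive and 77.8, 65.8, 59.3 and 61.1 in CD4 memory cells. In CD8 cells HNRNPLL lay at 20.5, 14.8 and 15.6 CPM in naive and 102, 59.7, 66.4 and 59.9 in memory libraries. Memory levels of the lineages overlapped, while CD8 naive libraries lay below CD4 naive ones. HNRNPLL rose by 0.99 (SE 0.12) in CD4 and 2.12 (SE 0.14) in CD8, an interaction of 1.13 (edgeR adjusted p = 0.0361, called in 5 of 15 fits without 1 library).

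CTSL, the lysosomal protease cathepsin L, was more abundant in CD4 than in CD8 cells of the same kind and draw, and rose more in CD8. CTSL lay at 175, 361, 594 and 386 CPM in CD4 naive, 319.8, 622, 1309 and 804 in CD4 memory, 20.4, 31.7 and 15.1 in CD8 naive and 151, 140.4, 320.3 and 230.4 in CD8 memory cells. CD4 naive and memory ranges overlapped between draws, yet memory was higher within each draw, and the CD8 groups did not overlap. CTSL rose by 0.97 (SE 0.24) in CD4 and 3.23 (SE 0.3) in CD8, an interaction of 2.26 (edgeR adjusted p = 0.0471, called in 4 of 15 fits without 1 library). ZC3H12A, the gene of Regnase-1, which degrades messenger RNAs of inflammatory genes, lay at 19.99, 55.5, 59.6 and 40.7 CPM in CD4 naive and 33.2, 74.5, 72 and 51.3 in CD4 memory cells. In CD8 cells it lay at 25.6, 71.3 and 38.6 CPM in naive and 92.3, 163, 179.5 and 135 in memory libraries. The rise within a draw was present in both lineages and larger in CD8, at 0.43 (SE 0.13) and 1.62 (SE 0.15), with an interaction of 1.183 (edgeR adjusted p = 0.0471, called in 3 of 15 fits).

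SFRP5, a secreted inhibitor of Wnt ligands, fell in both lineages and more in CD8. It lay at 78.2, 56, 88.6 and 104 CPM in CD4 naive, 25.9, 22.4, 47.3 and 53.5 in CD4 memory, 162, 172 and 197 in CD8 naive and 10.3, 14.6, 25.3 and 34.1 in CD8 memory cells. CD8 cells went from the highest group to a level that overlapped that of CD4 memory. SFRP5 fell by 1.2 (SE 0.2) in CD4 and by 3.03 (SE 0.23) in CD8, an interaction of -1.83 (edgeR adjusted p = 0.0471, called in 3 of 15 fits without 1 library). HOXB6, a homeobox transcription factor, was the only opposite gene, at low levels. It lay at 10.6, 3.67, 5.96 and 4.31 CPM in CD4 naive and 0.807, 0.641, 0.641 and 0.488 in CD4 memory, against 0.98, 0.8294 and 1.23 in CD8 naive and 1.55, 3.3, 2.33 and 3.2 in CD8 memory cells. Neither lineage's groups overlapped, and the directions were contrary in each complete draw. HOXB6 fell by 3.21 (SE 0.41) in CD4 and rose by 1.4 (SE 0.44, edgeR adjusted p = 0.0413) in CD8, an interaction of 4.62 (edgeR adjusted p = 0.0143, called in 10 of 15 fits).

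**Figure D4:**
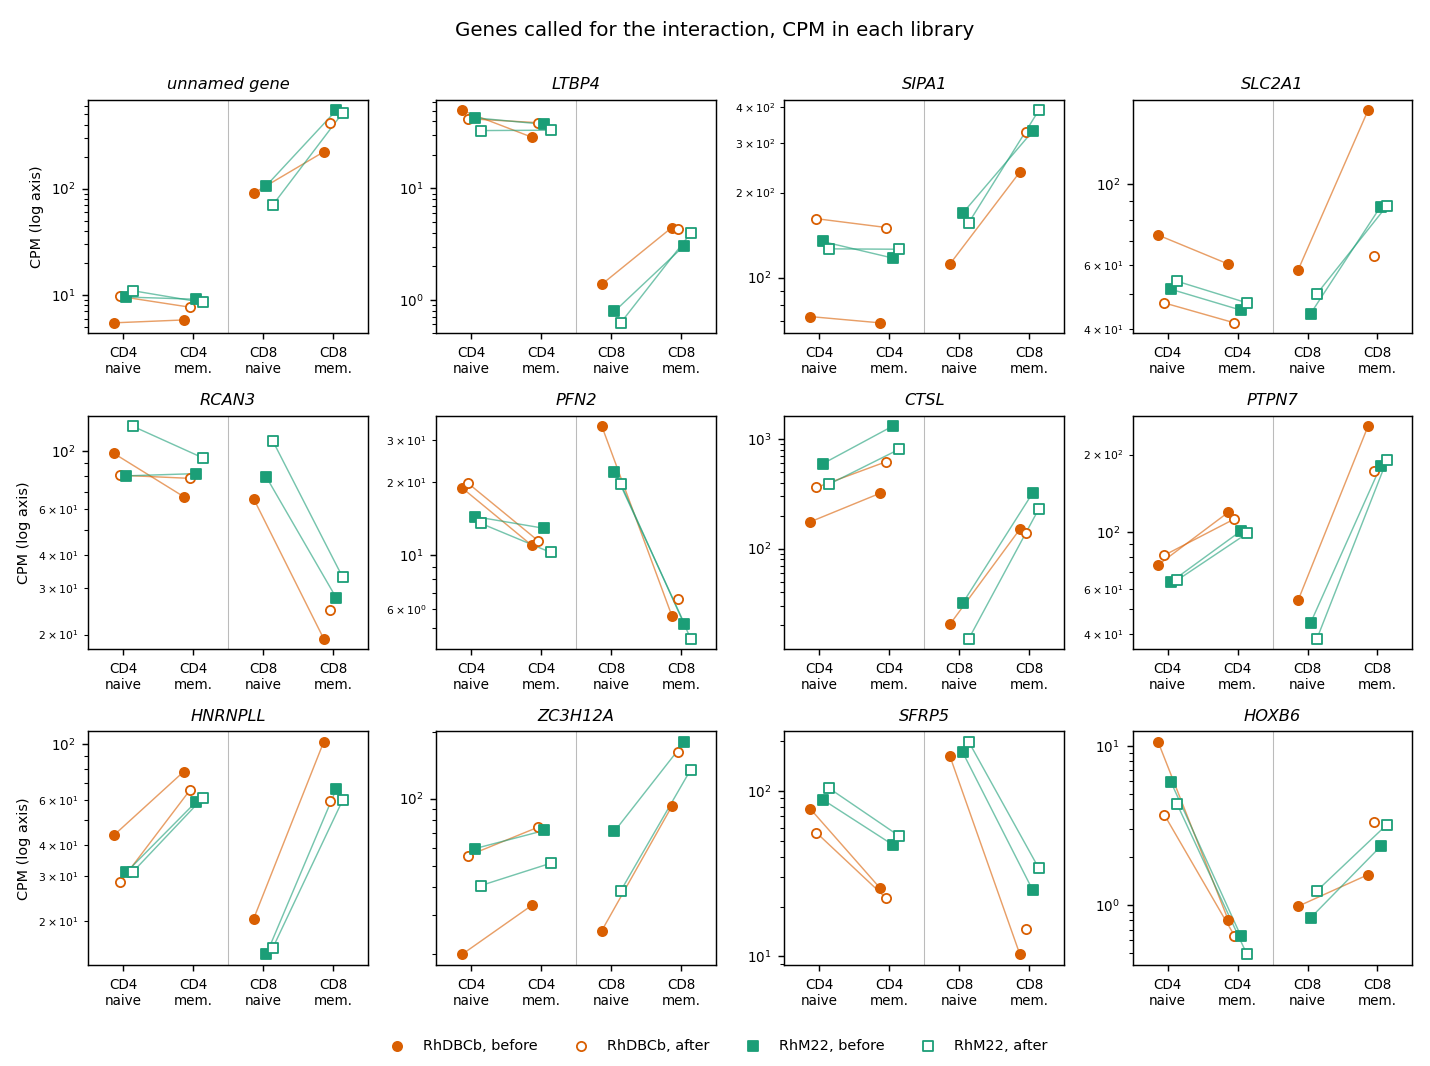
Level of the 12 genes called for the interaction in each of the 15 libraries as CPM on a log axis, ordered by pattern: 6 limited to CD8, 5 of unequal size and HOXB6; colour and shape give the animal, filled symbols are before and open symbols after treatment, and lines join naive and memory libraries of 1 draw. The CD8 lines are steeper than the CD4 lines in the other 11 panels, and in HOXB6 they run in contrary directions.

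The gene lists by role were described by counts and medians beside those of all genes tested, whose median difference was -0.01 in CD4 and 0.02 in CD8 and of whose interactions 53.2% lay above 0. Of all genes tested 13.1% passed in CD4 and 18.9% in CD8, in either direction. For the interaction, 8.43% of all genes tested had an unadjusted p under 0.05 and DESeq2 called 1.3%, the shares to set beside the list counts below. Among 23 naive and quiescence genes 10 were lower in CD4 memory and 13 in CD8 memory, 9 of them in both (39.1%, against 9.09% of all genes tested), and 0 were higher. The median difference was -0.57 in CD4 and -0.90 in CD8. By the interval of the interaction 6 were alike, among them BACH2, SATB1, TCF7, the forkhead factor FOXP1 and the adhesion molecule PECAM1. For the interaction 0 passed by edgeR, 3 had an unadjusted p under 0.05, and 1, KLF7, passed by DESeq2. LEF1, a partner of beta-catenin, lay at 763, 646 and 667 CPM in CD8 naive and 73.8, 101, 217 and 225 in CD8 memory, against 1003, 715, 646 and 719 in CD4 naive and 513, 389, 435 and 463 in CD4 memory cells. CD8 memory stood below all other groups, and the interaction of LEF1 was -1.33 (SE 0.42, edgeR adjusted p = 0.361). KLF7, a zinc finger factor, fell by 1.21 in CD8 and differed by -0.18 in CD4 (edgeR adjusted p = 0.251 for the interaction).

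Memory surface genes with S100 proteins, annexins and galectins were the list with the largest share of alike genes. Of 25 tested, 22 were higher in memory in each lineage, 20 in both (80%, against 9.09% of all genes tested). Of the 25, 11 were alike (44%, against 4.18% of all genes tested). Only a gene that passed in both lineages could be alike. Of all 1228 genes that did, 564 were alike (45.9%), to set beside 11 of the 20 here. The list medians were 1.197 in CD4 and 1.264 in CD8. For the interaction 0 passed by edgeR and by DESeq2, and 4 had an unadjusted p under 0.05. These 4 were VIM, AHNAK, ITGB1 and ANXA5, all above 0. The intermediate filament gene VIM rose by 0.9 in CD4 and 1.53 in CD8, and the integrin beta chain ITGB1 by 1.75 and 2.71, the latter with 3962 CPM in the CD8 memory library of RhDBCb before treatment and 1106 to 1232 CPM in the others. S100A4 rose by 4.09 (SE 0.41) in CD4 and 3.7 (SE 0.46) in CD8, with an interaction interval of -1.56 to 0.78, too wide to call it alike.

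Most cytotoxic granule genes, though not PRF1 in CD4 cells, were higher in memory. Of 20 tested, 17 were higher in CD4 and 14 in CD8 memory, 13 in both (65%), with medians of 1.83 in CD4 and 1.93 in CD8, and only 35% of the interactions lay above 0. Their starting levels differed. GZMK lay at 2.34, 2.63, 1.43 and 1.43 CPM in CD4 naive and 67.2, 57.5, 36 and 32 in CD4 memory, and at 140, 29.1 and 21.5 in CD8 naive and 319, 486, 297 and 324 in CD8 memory cells. The CD4 difference of GZMK was 4.6 (SE 0.37) and the CD8 difference 2.76 (SE 0.38), although CD8 memory cells held the most. Granzyme A (GZMA), NKG7 and CST7 showed the same order, with CD4 differences of 4.07, 3.29 and 3.31 and CD8 differences of 2.9, 2.37 and 2.32, and interactions that did not pass.

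Perforin had the contrary tilt. PRF1, which forms the pore through which granzymes enter a target cell, lay at 51, 64.6, 31.7 and 34.2 CPM in CD4 naive and 26.9, 29.3, 27.2 and 28.8 in CD4 memory cells. In CD8 cells PRF1 lay at 102, 193 and 137 CPM in naive and 275, 454, 1246 and 1149 in memory libraries. CD8 memory lay above CD8 naive without overlap, while CD4 memory lay below CD4 naive. The CD8 difference was 2.38 (SE 0.45), the CD4 difference -0.73 (edgeR adjusted p = 0.248), and the interaction 3.11 (95% interval 1.85 to 4.37) missed the threshold with an edgeR adjusted p = 0.0778. By edgeR 0 of the 20 genes passed for the interaction, 4 had an unadjusted p under 0.05, and DESeq2 called PRF1 and GZMK, in contrary directions. As given above, markers of NK cells and MAIT-like cells were also highest in CD8 memory libraries.

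Among 17 NK-type receptors and adaptors, 4 were higher in CD4 memory and 6 in CD8 memory, with 2 in both, KLRG1 and KLRB1 (11.8%, against 9.09% of all genes tested). For the interaction 0 passed by edgeR, 7 had an unadjusted p under 0.05 (8.43% of all genes tested did), and DESeq2 called CRTAM (5.88%, against 1.3% of all genes tested). CRTAM, an adhesion receptor of activated cytotoxic cells, lay at 2.04, 1.17, 0.283 and 0.302 CPM in CD4 naive and 7.28, 3.5, 2.18 and 1.15 in CD4 memory, and at 194, 103 and 81.6 in CD8 naive and 73.7, 124, 78.8 and 89.5 in CD8 memory cells. It rose by 1.92 in CD4 and differed by -0.4 in CD8 (edgeR adjusted p = 0.522), an interaction of -2.32 (edgeR adjusted p = 0.207). KLRF1 (NKp80) lay at 8.99, 7.28 and 4.19 CPM in CD8 naive and 19.6, 34.3, 59.7 and 62 in CD8 memory cells and at most at 0.266 CPM in CD4 libraries.

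Of 19 transcription factors of effector and memory cells, 9 were higher and 2 lower in CD4 memory, and 11 were higher in CD8 memory, 7 in both (36.8%). Their medians were 1.12 in CD4 and 1.75 in CD8. By edgeR 0 passed for the interaction and 7 had an unadjusted p under 0.05; DESeq2 called NFIL3, BHLHE40, ID2 and PRDM1, all above 0. NFIL3, a basic leucine zipper factor, lay at 96.9, 48.2, 77.2 and 65.6 CPM in CD4 naive, 64.4, 49.8, 49.5 and 41.8 in CD4 memory, 116, 95 and 90.7 in CD8 naive and 211, 149.9, 136 and 112 in CD8 memory cells. In 3 of the 4 draws CD4 memory was below CD4 naive, the exception being RhDBCb after treatment. NFIL3 fell by 0.47 in CD4 (edgeR adjusted p = 0.0492) and rose by 0.63 in CD8, with an interaction of 1.1 (edgeR adjusted p = 0.0833). ID2, an inhibitor of E proteins, fell by 0.87 in CD4 and differed by 0.1 in CD8 (edgeR adjusted p = 0.191 for the interaction). PRDM1 (Blimp-1), a repressor linked to effector differentiation, rose by 2.03 in CD8 and differed by 0.42 in CD4 (edgeR adjusted p = 0.242 for the interaction). TBX21 and EOMES, the T-box factors of type 1 responses, rose in both, by 3.46 and 3.32 in CD4 and 2.67 and 2.36 in CD8. Their interactions of -0.78 and -0.97 had edgeR adjusted p-values of 0.62 and 0.463.

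Helper and regulatory lineage genes were not limited to CD4 memory. Of 31 tested, 20 were higher in CD4 memory and 26 in CD8 memory, all 20 in both (64.5%), with medians of 2.21 in CD4 and 3.28 in CD8. By edgeR 0 passed for the interaction, 10 had an unadjusted p under 0.05, and DESeq2 called CD40LG and ICOS above 0 and IKZF4 and IL12RB2 below. CD40LG, the ligand by which helper T cells activate B cells, lay at 31.9 to 55.6 CPM in CD4 naive and 34.9 to 38 in CD4 memory libraries. In CD8 cells CD40LG lay at 2.09, 0.291 and 0.31 CPM in naive and 19.4, 8.43, 2.58 and 4.4 in memory libraries. CD8 memory exceeded CD8 naive in every draw with both and stayed below all CD4 libraries. The CD4 transcript in these CD8 libraries was at most 1.7 CPM, and the part of other cells in the CD40LG values was not tested. The interaction of CD40LG was 3.57 (95% interval 2.13 to 5.02), with an edgeR adjusted p = 0.0778.

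IKZF4 (Eos), a factor of regulatory T cells, fell by 2.37 in CD8 and differed by 0.64 in CD4 (edgeR adjusted p = 0.106 for the interaction). FOXP3, the regulator that defines regulatory T cells, rose by 2.29 in CD4 and 1.71 in CD8, where it stayed at 0.991 to 8.2 CPM in memory libraries. CXCR5, the receptor that guides cells to B cell follicles, lay at 74.8, 61.9, 98.9 and 56.8 CPM in CD4 naive, 272, 288, 273 and 231 in CD4 memory, 8.3, 9.22 and 8.26 in CD8 naive and 48.6, 64.6, 47.2 and 52 in CD8 memory cells. Naive and memory libraries did not overlap in either lineage. The rises of 1.87 and 2.61 gave an interaction of 0.73 (95% interval 0.23 to 1.24), which passed by neither edgeR nor DESeq2. BCL6, the follicular helper repressor, was alike, with rises of 1.19 and 1.27. GATA3 differed by 0.78 in CD4 (edgeR adjusted p = 0.0554) and rose by 1.85 in CD8.

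Of 25 homing receptors tested, 13 were higher and 2 lower in CD4 memory, and 14 were higher and 3 lower in CD8 memory, 14 in both in the same direction (56%), with medians of 0.93 and 1.47. For the interaction 0 passed by edgeR, 7 had an unadjusted p under 0.05, and DESeq2 called 2, GPR183 above 0 among them. GPR183, an oxysterol receptor that positions lymphocytes, lay at 3041, 2114 and 1535 CPM in CD8 naive and 5595, 6333, 6117 and 5283 in CD8 memory, against 3107 to 7886 in CD4 naive and 4652 to 8621 in CD4 memory libraries. It rose by 1.47 in CD8 and differed by 0.38 in CD4 (edgeR adjusted p = 0.124 for the interaction). The chemokine receptors CXCR3 and CXCR6 had interactions of -1.59 and -1.95, and CCR4 one of 1.56, none past the threshold. CCR7, the lymph node homing receptor, fell by 0.9 in CD8 (edgeR adjusted p = 0.0467) and differed by -0.52 in CD4.

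**Figure D5:**
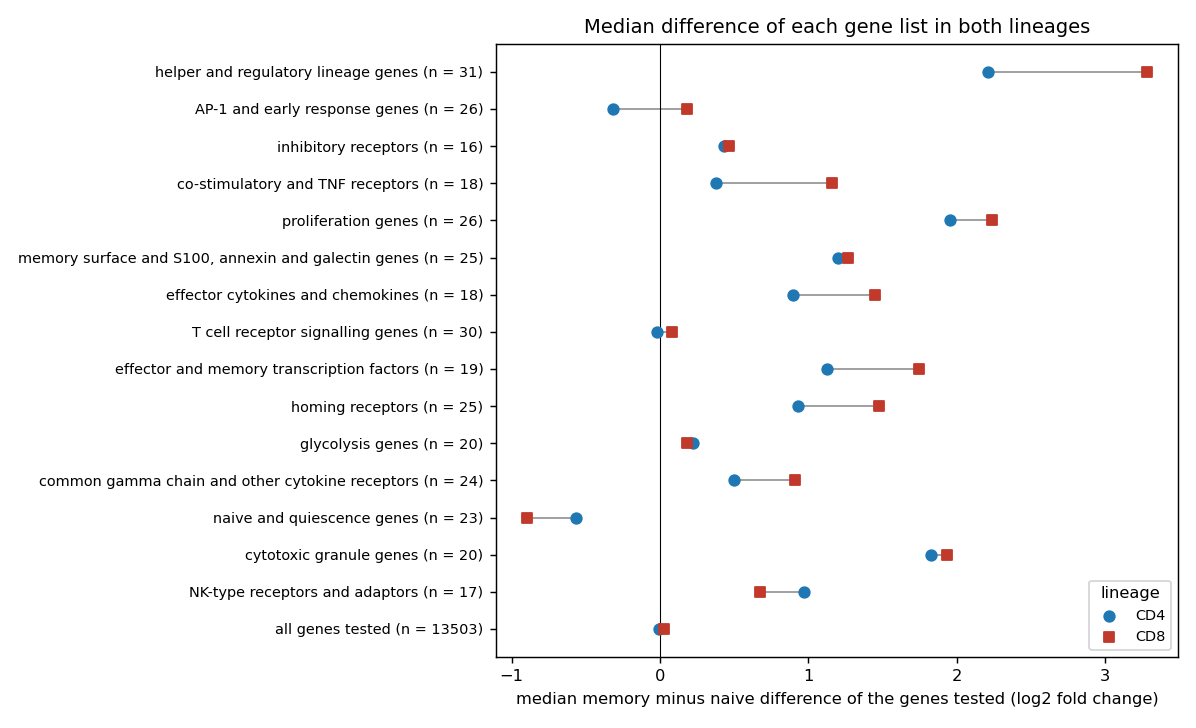
Median memory minus naive difference of each gene list, as log2 fold change, in CD4 (blue circles) and CD8 cells (red squares), ordered by the median interaction, with all genes tested at the bottom; n is the number of genes tested. The medians of both lineages lie on the same side of 0 in all lists shown but the AP-1 and T cell receptor signalling genes, and they lie farthest apart for the helper and regulatory genes.

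Of 18 co-stimulatory and TNF receptors, 7 were higher in CD4 and 10 in CD8 memory, 7 in both (38.9%) and 3 alike, with medians of 0.38 and 1.16; ICOS rose by 1.28 in CD8 and differed by 0.45 in CD4 (edgeR adjusted p = 0.264 for the interaction). Of 16 inhibitory receptors, 5 were higher in CD4 memory and 6 higher and 1 lower in CD8 memory, 3 in both (18.8%). PDCD1 (PD-1) rose by 2.02 in CD4 and 2.57 in CD8, and TIGIT by 3.75 and 3.26. LAG3, which binds MHC class II, rose by 2.75 in CD8 and differed by 1.1 in CD4 (edgeR adjusted p = 0.359 for the interaction). Of 18 effector cytokines and chemokines, 4 were higher and 1 lower in CD4 memory and 8 higher and 2 lower in CD8 memory, 3 in both in the same direction (16.7%), and CCL5 passed in neither. In these 3 lists 0 passed for the interaction by edgeR, 4, 4 and 3 had an unadjusted p under 0.05, and DESeq2 called CD40LG and ICOS of the first and 0 of the others.

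Among 24 common gamma chain and other cytokine receptors, 9 were higher and 2 lower in CD4 memory and 16 higher and 3 lower in CD8 memory, 11 in both in the same direction (45.8%). For the interaction 0 passed by edgeR, 6 had an unadjusted p under 0.05, and DESeq2 called IL4R above 0 and IL6ST and IL12RB2 below. IL6ST, the gp130 chain of the IL-6 receptor, lay at 261, 143, 283 and 347 CPM in CD4 naive, 117, 84, 198 and 162 in CD4 memory, 116, 213 and 264 in CD8 naive and 20.4, 26.1, 57.2 and 34.4 in CD8 memory cells. CD8 memory was lowest throughout. IL6ST fell by 0.91 in CD4 and by 2.33 in CD8, an interaction of -1.43 (SE 0.3, edgeR adjusted p = 0.116). IL4R rose by 1.12 in CD8 and differed by 0.01 in CD4 (95% interval -0.38 to 0.4; edgeR adjusted p = 0.202 for the interaction).

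T cell receptor signalling genes passed about as often as all genes. Of 30 tested, 2 were higher and 2 lower in CD4 memory (13.3% in all, against 13.1%) and 4 higher and 3 lower in CD8 memory (23.3%, against 18.9%). In both in the same direction there were 3 (10%). An interaction interval within 2-fold was found for 19 of the 30, against 6176 of all 13503 genes tested (45.7%). By edgeR 0 passed for the interaction, 4 had an unadjusted p under 0.05, and DESeq2 called PTPN22 and THEMIS. PTPN22, a phosphatase that dampens receptor signals, rose by 0.88 in CD8 and differed by -0.08 in CD4 (95% interval -0.38 to 0.21; edgeR adjusted p = 0.115 for the interaction). THEMIS, a regulator of receptor signalling, fell by 0.89 in CD4 and by 1.99 in CD8 (edgeR adjusted p = 0.203 for the interaction).

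AP-1 and early response genes leaned toward CD8 in the interaction. Of 26 tested, 23 lay above 0 (88.5%, against 53.2% of all genes tested), with median differences of -0.32 in CD4 and 0.18 in CD8. Within a lineage 1 was higher and 4 lower in CD4 memory (19.2% in all, against 13.1% of all genes tested), and 6 were higher in CD8 memory (23.1%, against 18.9%). For the interaction 0 passed by edgeR, 8 had an unadjusted p under 0.05, and DESeq2 called FOSL2. FOSL2, a Fos family subunit of AP-1, lay at 189.8, 239, 304 and 325 CPM in CD4 naive, 185, 211, 297 and 262 in CD4 memory, 169, 396 and 334 in CD8 naive and 390.2, 378, 545 and 597 in CD8 memory cells. Within each draw CD4 memory lay slightly below CD4 naive and CD8 memory above CD8 naive, an interaction of 0.93 (95% interval 0.53 to 1.33, edgeR adjusted p = 0.0943). TNFAIP3 (A20), which limits NF-kB signalling, fell by 0.96 in CD4 and differed by 0.07 in CD8 (edgeR adjusted p = 0.393 for the interaction). FOS fell by 0.69 in CD4 and differed by -0.04 in CD8, whereas the MAP kinase phosphatase DUSP4 was alike, at 1.12 and 1.2.

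Proliferation and glycolysis genes completed the lists. Of 26 proliferation genes 12 were higher in CD4 and 18 in CD8 memory, 11 in both (42.3%), with medians of 1.95 and 2.24. By edgeR 0 passed for the interaction, 5 had an unadjusted p under 0.05, and DESeq2 called CENPF. MKI67 lay at 3.3, 2.75, 0.141 and 0.604 CPM in CD4 naive and 19.7, 15.6, 8.22 and 8.6 in CD4 memory, and at 6.18, 0.422 and 0.4934 in CD8 naive and 115, 11.1, 5.93 and 10.1 in CD8 memory cells. The CD8 memory library of RhDBCb before treatment stood far above the rest, and the MKI67 interaction was 0.32 (SE 0.8). Of 20 glycolysis genes 4 were higher and 2 lower in CD4 memory, 7 higher and 2 lower in CD8 memory, and 4 were alike (20%), among them GAPDH at 0.68 and 0.94. SLC2A1 was called, 3 had an unadjusted p under 0.05, and 15 had an interaction interval within 2-fold, against 6176 of all 13503 genes tested (45.7%). The second glucose transporter, SLC2A3 (GLUT3), fell by 0.69 in CD4 and differed by -0.0 in CD8 (edgeR adjusted p = 0.397 for the interaction).

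Of 10 genes that set the CD4 and CD8 lineages, 0 passed for the interaction by edgeR and 5 had an unadjusted p under 0.05 (8.43% of all genes tested did). DESeq2 called CD40LG, CRTAM, ZBTB7B and THEMIS (40%, against 1.3% of all genes tested). ZBTB7B (ThPOK), the factor that commits cells to the CD4 lineage, lay at 1.56, 2.33, 3.73 and 5.02 CPM in CD4 naive and 3.7, 7.92, 5.89 and 6.73 in CD4 memory, and at 0.781, 0.64 and 0.888 in CD8 naive and 6.3, 5.12, 6.31 and 5.92 in CD8 memory cells. CD8 memory thus overlapped CD4 memory, while CD8 naive lay below all other libraries. ZBTB7B rose by 2.95 (SE 0.38) in CD8 and differed by 0.99 in CD4 (edgeR adjusted p = 0.191 for the interaction). CD8B fell by 0.77 in CD8 memory, from 306 to 436 to 165 to 224 CPM. ZBTB16 (PLZF), the factor of innate-like T cells and a MAIT-like marker, came closest to the threshold. It lay at 26, 16.5, 13.4 and 18.2 CPM in CD4 naive, 18.6, 14, 7.66 and 11.7 in CD4 memory, 43.9, 19 and 26.6 in CD8 naive and 63, 99.3, 90.9 and 141 in CD8 memory cells. CD8 memory lay above all other groups and CD4 memory below CD4 naive in every draw, an interaction of 2.36 (95% interval 1.5 to 3.22, edgeR adjusted p = 0.0516).

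By edgeR 0 genes were limited to CD4. Of those that passed in CD4 and not in CD8, PDZRN3, a ubiquitin ligase, had the smallest p of the interaction. It lay at 21.2, 14.8, 4.7 and 6.37 CPM in CD4 naive, 86.3, 49.6, 28.3 and 38 in CD4 memory, 304, 107 and 148 in CD8 naive and 230, 208, 184 and 204 in CD8 memory cells. It rose by 2.18 (SE 0.25) in CD4 and differed by 0.27 (95% interval -0.29 to 0.84) in CD8, an interaction of -1.91 (edgeR adjusted p = 0.0778). CD83, an activation marker, fell by 1.3 in CD4 and differed by 0.17 (95% interval -0.33 to 0.67) in CD8 (edgeR adjusted p = 0.116 for the interaction). Of the 538 genes that passed in CD4 and not in CD8, 501 had the same sign in CD8, and of the 1323 that passed in CD8 and not in CD4, 1195 had the same sign in CD4. The interaction passed for 0 of the former and 6 of the latter. The share of all genes tested with the same sign in both lineages was not counted. Across all genes tested the CD4 and CD8 differences correlated at a Pearson r of 0.63, so the counts of same signs are a description only.

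Whether the interaction differed between times or animals was tested in separate models. Between times 0 genes passed by edgeR and 122 (0.904%) had an unadjusted p under 0.05; between animals 0 passed and 875 (6.48%) did. DESeq2 gave 1 and 99. Both tests rest on few libraries, since each time and each animal has only 1 or 2 draws. Fitted on RhM22 alone, 87 genes passed for the interaction, 9 of the 12 among them, and on RhDBCb alone 0, with 713 at an unadjusted p under 0.05. The PTPN7 interaction was 1.53 in RhM22 and 1.45 in RhDBCb, and 1.48 before and 1.65 after treatment. For CTSL it was 2.52 and 1.69 in the animals and 2.06 and 2.87 at the times, in the same order. Among the 12 genes ENSMMUG00000057791 had the widest gap between animals, 2.82 in RhM22 against 1.46 in RhDBCb, and between times, 1.83 before against 3.19 after treatment.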

How the data were processed

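RNA with poly(A) tails was purified from blood T cells (RNeasy Micro) and amplified by a SMART-Seq v4 kit, per the labels' protocols. This kit keeps no record of strand, so overlapping genes on opposite strands cannot be told apart. RSEM 1.3.3, STAR 2.7.6a and cutadapt 1.18, and the builds rheMac10 and Mmul_10, are named without a role, per the submitters' processing notes. The deposited expected counts per gene, estimated by RSEM, were rounded to whole numbers, which changed no library total by more than 26.1. The authors' FPKM table was deposited beside it, and no value printed here comes from it. Symbols were in the deposited table for 23407 genes and came from the table of gene names for 933.

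Genes were kept by filterByExpr with a minimum count of 10 and scaled by TMM. CPM are counts scaled to a common library total in this way. The main test was edgeR 4.0.16's quasi-likelihood F test with 4 subsets and 4 draws as terms (R 4.3.3, limma 3.58.1), with Benjamini-Hochberg adjustment over all genes tested and a threshold of 0.05. Standard errors are the absolute log2 fold change over the square root of F. Adjusted p-values marked edgeR are from this fit, and those by DESeq2 1.42.0 are from its Wald test on the same design. The scripts were tested on simulated counts.

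Libraries share a draw because the labels give the same animal and time. Their deviations from the subset means correlated at 0.19 to 0.518 within a draw (21 pairs). Between times of the same animal they correlated at 0.0546 to 0.441 (21 pairs), which overlaps the range within a draw. Between animals the values were -0.517 to -0.135. Deviations from a subset mean cancel out within the subset, so negative correlations are partly built in.

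A gene was limited to CD8 or CD4 when the interaction and that lineage passed, the other lineage did not, and the 95% interval of the other lineage lay within 2-fold. Genes were named by size of the difference among called or alike genes with a symbol and a mean of at least 5 CPM, and from a fixed panel. Called genes also needed 1 sign in all 3 complete draws. Alike genes did not, and were ranked by the smaller of their absolute CD4 and CD8 differences. HOXB6, the gene without a symbol and those list members outside the panel were named after their values were seen. The members and lists were chosen with earlier results of these data known. Alternatives covered the block, the scaling, the filter, the tool, the margin, the threshold, each animal, each time and each library left out. Intervals take no account of PCR copies, which are not independent molecules. Sequences were not used here, and a few panel genes are not reported here.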

Additional observations from a re-analysis of the deposited data

Results flagged for a closer look

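Among 345 sets of 4 libraries of 1 subset and 1 gene, 27 held a library whose gap to the nearest of the others was large for the range of the set (Dixon's test at 95%). Chance flags about 1 in 20 such sets. No flag came from a test of differences between animals or times. All values are CPM of the library that stood apart.

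The CD8 memory library of RhDBCb before treatment, which also had the most MKI67, held 8 of the flags. It was highest for LGALS3 (326, nearest 109), SAMSN1 (276, nearest 100.1), NRIP1 (208, nearest 131), ANXA2 (1299, nearest 426), ITGB1 (3962, nearest 1232), the antiviral deaminase APOBEC3G (472.5, nearest 193) and the IL-10 receptor chain IL10RA (1319, nearest 1125). It was lowest for the sphingosine-1-phosphate receptor S1PR5 (7.11, nearest 21.6). Of these, LGALS3, SAMSN1 and NRIP1 are among the genes called alike. The CD8 memory library of RhDBCb after treatment was lowest for CD58 (69.5) and IL4R (485).

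In CD4 naive cells of RhDBCb before treatment ANXA1 (1483), VIM (534.6), the T cell receptor kinase ZAP70 (134.8) and APOBEC3G (4.63) were lowest and NCR3 (1.15) highest. In those of RhDBCb after treatment PTPN22 (71.8), ANXA2 (269) and CENPF (32.6) were highest and DUSP4 (18.7) lowest. In those of RhM22 before treatment CST7 (1.27) and IL12RB2 (0.202) were highest and IFNG (0.222) lowest. In those of RhM22 after treatment TCF7 (123) was highest and KLRB1 (0.175) lowest. In CD4 memory cells of RhDBCb, ANXA1 (4427) was highest after treatment, and before treatment ZAP70 (130.1) was lowest and FOS (7111) highest. ZAP70 was lowest in all 4 subsets in that draw, with 155 CPM in CD8 naive and 261 in CD8 memory, against 278 to 327 and 383 to 486 in the other libraries of those subsets.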

How the results depend on the processing

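The direction of all 12 called genes held in each alternative run, except that HOXB6 fell below the stricter filter and had no value there, while the counts moved. Those runs reused libraries from which the 12 genes were chosen. In the order called for the interaction, alike, limited to CD8, limited to CD4 and opposite, the main counts were 12, 564, 6, 0 and 1. With no replicate block they were 1, 69, 0, 0 and 0, and with animal and time as separate terms in the replicate block 6, 324, 4, 0 and 1. DESeq2's Wald test gave 176, 827, 50, 7 and 7, and DESeq2's size factors in edgeR 14, 554, 6, 0 and 1. No filter on low counts gave 32, 470, 13, 1 and 3, and a stricter filter (5 CPM in 3 libraries) 19, 627, 7, 0 and 1. RhM22 alone gave 87, 449, 35, 7 and 9, and RhDBCb alone 0, 1, 0, 0 and 0. The libraries before treatment alone gave 0, 19, 0, 0 and 0, and those after treatment alone 0, 3, 0, 0 and 0; at an unadjusted p under 0.05 these 3 fits of fewer libraries had 713, 458 and 441 genes for the interaction. An adjusted p under 0.01 gave 0, 214, 0, 0 and 0. A 1.5-fold margin gave 149 alike and 3 limited to CD8. Chosen after seeing the data, leaving out both CD8 libraries of RhDBCb before treatment gave 64, 499, 24, 7 and 7, and leaving out the libraries of RhDBCb after treatment 1, 349, 0, 0 and 0. The cause of these moves was not tested.

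Over the 15 fits that left out 1 library the counts ran from 0 to 44 called, 287 to 583 alike, 0 to 18 limited to CD8, 0 to 4 limited to CD4 and 0 to 5 opposite. Between times 0 genes differed in each of the 14 fits that could be made, and between animals 0 to 1; DESeq2 gave 1 and 99. Without CD8 naive replicate 3 the test between times, and without CD8 naive replicate 1 the test between animals, could not be fitted. For single named genes, 2860 values kept their side of the threshold, 173 lost it and 68 gained it. Among genes called in the main fit or the alternative, 0 changed sign. Changes of sign in genes called in neither fit were not counted. With 2 animals and 3 complete draws, the median 95% interval of the interaction reached 0.749 to either side. That interval takes no account of the adjustment over all genes, so it is not a limit of detection. Larger interactions, such as that of PRF1, also missed the threshold.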

Other observations

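Marker lists of other cells were fitted in the same way. Of 9 NK cell markers tested, 2 were higher in CD4 memory and 4 in CD8 memory, and of 7 MAIT-like markers 5 and 7. Of 4 gamma-delta markers 2 were higher in each lineage. Of 12 B cell markers 1 was higher in CD4 memory, and 1 higher and 1 lower in CD8 memory; their median interaction was -1.24, and DESeq2 called CD79A (-1.25) and CR2 (-1.55) for the interaction. Of 12 monocyte and dendritic cell markers 1 was higher in CD4 and 1 lower in CD8 memory. Of 11 platelet markers 1 was lower in each lineage, and of 3 erythroid and 3 neutrophil markers 0 passed. For the interaction edgeR called 0 in these 8 lists, and 4, 4, 0, 3, 2, 0, 0 and 0 had an unadjusted p under 0.05, in the order NK, MAIT-like, gamma-delta, B cell, monocyte, platelet, erythroid and neutrophil. DESeq2 called ZBTB16 of the MAIT-like list and those 2 B cell markers. Of all genes tested, 8.43% had an unadjusted p under 0.05 and DESeq2 called 1.3%.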
